A study of Homo sapiens with 24 samples.

Results

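The integrin subunits described here are 10 genes: ITGA2, ITGA3, ITGA5, ITGA6, ITGAV, ITGB1, ITGB4, ITGB5, ITGB6 and ITGB8. They were chosen by their RNA levels in the HCT116 TNRC6 experiment, from the 26 annotated integrin subunits, and are 10 of the 57721 genes to which the sequenced transcripts were summed. Because the levels in the 8 groups chose these genes, their gene-level changes are given as a description, and nothing is supported with their counts or p-values. The share of a gene's reads that falls on each of its transcripts, and the inclusion of an alternative exon, played no part in the choice and were tested.

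Integrins are receptors that join a cell to the matrix around it, and each is a pair of an alpha and a beta chain that cross the cell membrane. Which chains pair decides what the receptor binds: ITGA3 and ITGA6 make laminin receptors, ITGA2 makes a collagen receptor with ITGB1, ITGA5 makes a fibronectin receptor with ITGB1, and ITGAV binds matrix proteins that hold the RGD motif. ITGB4 pairs with ITGA6 alone and anchors epithelial cells in the hemidesmosome, while ITGB5, ITGB6 and ITGB8 pair with ITGAV alone. The TNRC6 proteins bind Argonaute and recruit the enzymes that shorten poly(A) tails, and so carry out silencing by microRNAs in the cytoplasm.

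RNA of HCT116 cells, an epithelial line of a human colon carcinoma, was sequenced as 24 libraries in 8 groups of 3. Without transfection, the groups were TNRC6A-/- cells, whose gene carries a frameshift, TNRC6B-/- cells, whose gene carries a large deletion, TNRC6AB-/- cells, which carry both, and the wild-type (WT) parent. With transfection, the groups were TNRC6AB-/- cells given siTNRC6C, a pool of duplexes against the TNRC6C mRNA, TNRC6AB-/- cells given siGL2, a duplex with no human target, WT cells given siTNRC6C, and WT cells given siGL2. Each genotype was a purchased line and may be a single clone, TNRC6AB-/- cells were plated at a higher density than WT cells for transfection, and no source used here states that the 3 libraries of a group came from separate cultures, so that p-values measure the spread between libraries, which may be technical. Comparisons without transfection share the WT libraries, and 3 of the 4 comparisons with transfection share the WT siGL2 libraries.

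Libraries held 28144290 to 42689320 reads, and levels per library are given as counts scaled to library size by TMM (CPM). The targeted genes were lower in the cells that carry their mutation or duplex: TNRC6A was at 66.4 to 69.8 CPM in TNRC6A-/- cells and 45.9 to 57.0 in TNRC6AB-/- cells against 95.4 to 120.9 in WT, TNRC6B was at 113.1 to 126.4 in TNRC6B-/- cells and 90.3 to 98.5 in TNRC6AB-/- cells against 184.4 to 202.8 in WT, and TNRC6C was at 18.7 to 20.7 in TNRC6AB-/- siTNRC6C cells against 113.1 to 127.1 in TNRC6AB-/- siGL2 cells, and at 20.6 to 21.4 in WT siTNRC6C cells against 49.5 to 58.0 in WT siGL2 cells. The 8 epithelial markers summed to 1477 to 1602 TPM in TNRC6A-/- cells, 814 to 906 in TNRC6B-/- cells and 1137 to 1467 in TNRC6AB-/- cells against 1135 to 1147 in WT, and to 1292 to 1358 in TNRC6AB-/- siTNRC6C cells, 1251 to 1331 in TNRC6AB-/- siGL2 cells and 1175 to 1192 in WT siTNRC6C cells against 956 to 971 in WT siGL2, with VIL1 below 0.1 TPM in 6 of the 8 groups. In all groups 5 blood markers summed to at most 1.64 and 4 endothelial markers to at most 1.57 TPM. The sum of the 5 fibroblast markers was 4.24 to 10.5 TPM in TNRC6AB-/- cells, 0.353 to 1.01 in TNRC6A-/- cells and 0.289 to 1.04 in TNRC6B-/- cells against 0.759 to 0.917 in WT, and 3.03 to 3.35 in TNRC6AB-/- siTNRC6C cells and 1.45 to 2.001 in TNRC6AB-/- siGL2 cells against 0.299 to 0.534 in WT siGL2, with LUM and THY1 below 0.1 TPM in every library. Of these 5, 2 had enough reads to test, and of them COL3A1 rose in each TNRC6AB-/- group against its WT group. The part of these genes in the integrin values was not tested. Spread between replicates was wider without transfection (median biological coefficient of variation 0.204) than with it (0.0797), and the fit used 1 spread for all groups.

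The RNA levels of the subunits spanned over 3 orders of magnitude in untreated WT cells. On the TPM scale, which divides by transcript length and so compares genes within a library, ITGB1 was at 213 ± 62.0 TPM (mean ± SD, n = 3), ITGA3 at 158 ± 106, ITGB4 at 105.5 ± 25.6 and ITGA6 at 54.3 ± 8.13. ITGA2 (21.1 ± 6.84), ITGB5 (20.9 ± 3.57), ITGAV (17.8 ± 2.94) and ITGA5 (15.7 ± 3.37) followed, and their replicate ranges overlapped. ITGB8 had 2.77, 1.15 and 2.41 TPM, below every library's value for the 4 genes just named. ITGB6, the epithelial partner of ITGAV, was nearly silent at 0.035 ± 0.011 TPM. The ranges of ITGB1 and ITGA3 overlapped too, as did those of ITGA3 and ITGB4, because 1 WT library, replicate 2, held 280 TPM of ITGA3 against 102.7 and 91.5 in the other two. In TNRC6AB-/- siTNRC6C cells the order was ITGB1 (293 ± 12.7 TPM), ITGB4 (118 ± 5.19), ITGA3 (96.6 ± 3.4965), ITGA6 (95.3 ± 2.84), ITGB5 (65.5 ± 4.39), ITGA5 (22.8 ± 2.03), ITGAV (21.8 ± 0.682), ITGA2 (12.2 ± 0.474), ITGB8 (9.04 ± 0.353) and ITGB6 (0.068 ± 0.025), and the libraries of ITGA3 and ITGA6 overlapped, as did those of ITGA5 and ITGAV.

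**Figure D1:**
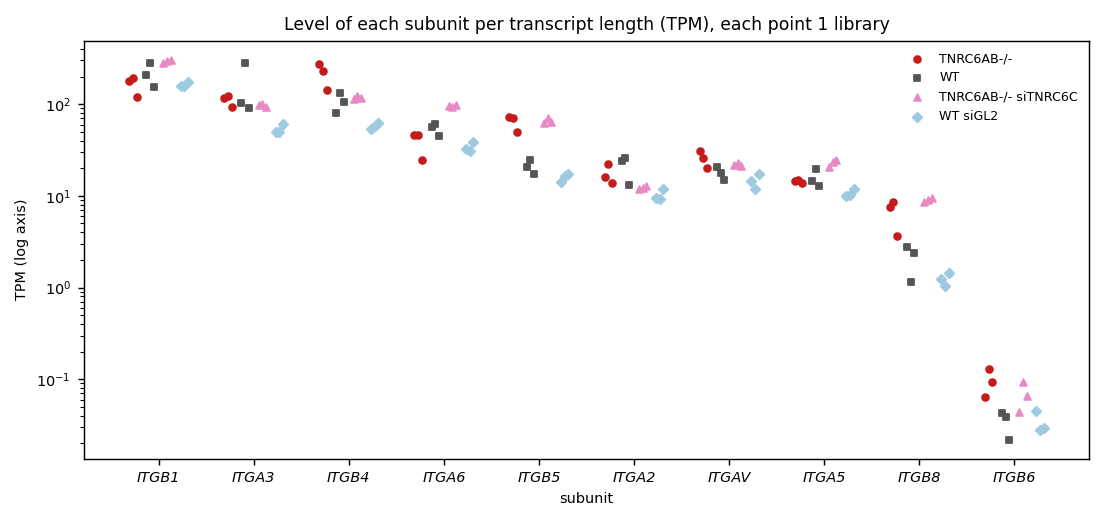
RNA level of the 10 integrin subunits (TPM, log axis) in TNRC6AB-/-, WT, TNRC6AB-/- siTNRC6C and WT siGL2 cells, with each library as a point. ITGB1 averaged 213 TPM and ITGB6 0.035 TPM in WT cells, and ITGB8 was at 9.04 TPM in TNRC6AB-/- siTNRC6C cells.

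The called changes in the subunits were all rises in this fit, and most were in beta chains. In edgeR's quasi-likelihood fit of all 24 libraries, with p-values adjusted by Benjamini-Hochberg over 24153 genes and a gene called below 0.05, 3 of 10 members rose in TNRC6A-/- cells against WT (ITGB8, ITGB4 and ITGB5) and 2 of 10 in TNRC6B-/- cells (ITGAV and ITGB4). In TNRC6AB-/- cells 5 of 10 rose (ITGB5, ITGB8, ITGB6, ITGB4 and ITGAV). ITGB6 entered the fit through groups where it was higher and had to differ. It is part of this count and of the medians below as a value only. In the background of all tested genes, 8.52% rose and 5.47% fell in TNRC6A-/- cells, 2.2% rose and 0.94% fell in TNRC6B-/- cells, and 17.2% rose and 12.3% fell in TNRC6AB-/- cells. The median log2 fold change of the members was 0.25 in TNRC6A-/- cells, 0.25 in TNRC6B-/- cells and 0.49 in TNRC6AB-/- cells, and the medians of all tested genes were 0.015, 0.038 and 0.0067. The calls in TNRC6B-/- cells are the least secure: both were lost when only the 6 compared libraries were fitted and when replicate 2 or replicate 3 of TNRC6B-/- was left out, and 5 members were called without replicate 1.

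With transfection, 1 of 10 members rose in WT siTNRC6C cells against WT siGL2 (ITGB8), 2 of 10 in TNRC6AB-/- siGL2 cells against WT siGL2 (ITGB8 and ITGB5), 4 of 10 in TNRC6AB-/- siTNRC6C cells against WT siGL2 (ITGB8, ITGB5, ITGA6 and ITGA5) and 2 of 10 in TNRC6AB-/- siTNRC6C cells against TNRC6AB-/- siGL2 (ITGB8 and ITGA6). Of all tested genes, 0.397% rose and 0.534% fell in the first of these comparisons, 9.17% rose and 12.5% fell in the second, 17% rose and 25.2% fell in the third, and 2.19% rose and 4.37% fell in the last. The median log2 fold change of the members, beside that of all tested genes, was -0.04 beside 0.00082 in WT siTNRC6C cells, 0.13 beside -0.0032 in TNRC6AB-/- siGL2 cells, 0.43 beside 0.0071 in TNRC6AB-/- siTNRC6C cells against WT siGL2 and 0.19 beside -0.019 against TNRC6AB-/- siGL2. No member fell by this test in any of the 7 comparisons. At an unadjusted p below 0.05, 2 members were lower in WT siTNRC6C cells (ITGB4 and ITGB6) and 1 in TNRC6AB-/- siTNRC6C cells against TNRC6AB-/- siGL2 (ITGAV), and DESeq2 called ITGB4 lower in WT siTNRC6C cells. ITGB1, ITGA2 and ITGA3 were called in none of the 7 comparisons in this fit, and each was called in some of them under other settings.

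**Figure D2:**
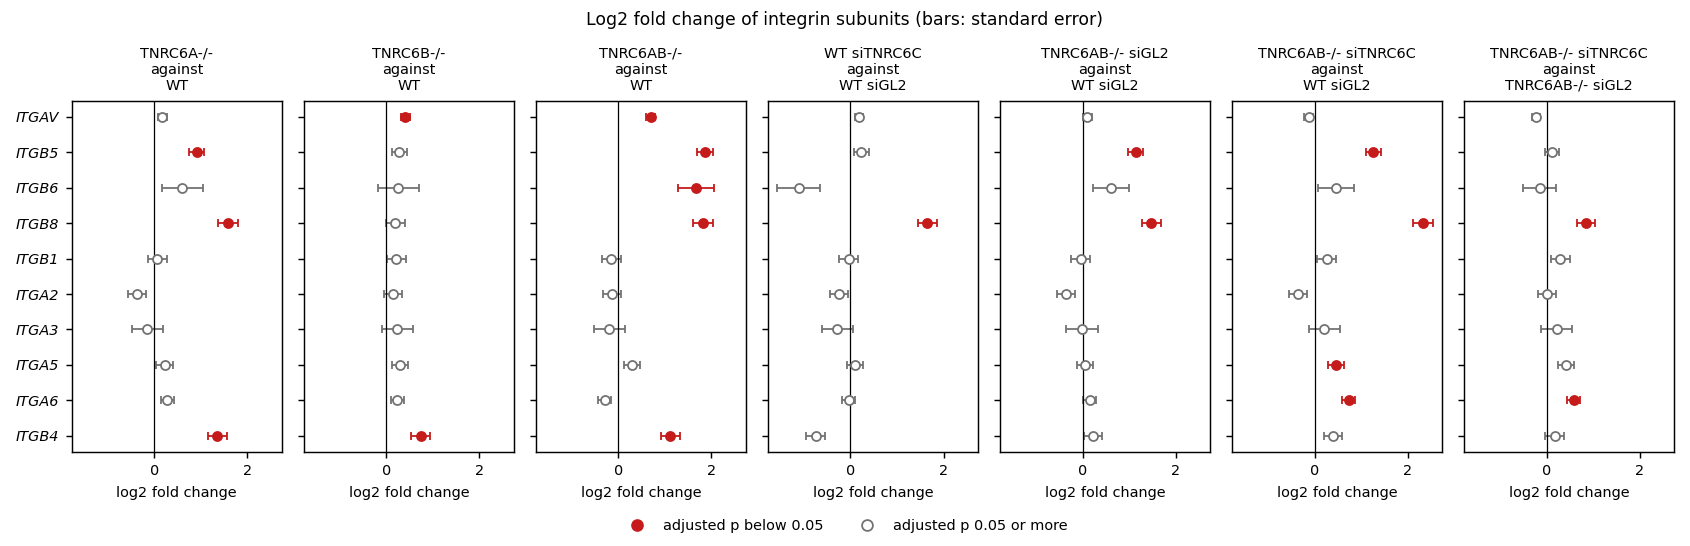
Log2 fold change of each integrin subunit in the 7 comparisons, with its standard error, from the edgeR fit of 24 libraries. ITGB8 reached 2.32 in TNRC6AB-/- siTNRC6C cells against WT siGL2, and ITGB4 lay at 1.35 in TNRC6A-/- cells against WT and at -0.75 in WT siTNRC6C cells against WT siGL2.

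ITGB8 (ENSG00000105855.9, GRCh38 chromosome 7, 20330702 to 20415754, plus strand), whose receptor with ITGAV binds latent TGF-beta, was higher wherever a TNRC6 paralog was reduced except in TNRC6B-/- cells. Untransfected TNRC6A-/- libraries held 53.5, 38.0 and 47.2 CPM of ITGB8, TNRC6B-/- libraries 13.96, 19.2 and 19.98, and TNRC6AB-/- libraries 50.2, 70.8 and 41.9, against 18.7, 9.06 and 18.4 in WT. TNRC6A-/- and TNRC6AB-/- libraries lay above every WT library, and those of TNRC6B-/- overlapped WT. Of all tested genes, 31.4% had no overlap with WT, above or below, in TNRC6A-/- cells. The share was 11.2% in TNRC6B-/- cells and 34% in TNRC6AB-/- cells, and these shares stand beside each statement on overlap of gene levels below. The log2 fold change was 1.59 in TNRC6A-/- cells (SE 0.21, adjusted p = 1.4e-05), 1.82 in TNRC6AB-/- cells (SE 0.21, adjusted p = 5.5e-07) and 0.20 in TNRC6B-/- cells (SE 0.21, adjusted p = 0.751).

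After transfection, ITGB8 was at 65.6, 65.7 and 70.0 CPM in TNRC6AB-/- siTNRC6C cells, at 39.5, 36.1 and 36.4 in TNRC6AB-/- siGL2 cells, and at 43.1, 40.6 and 42.5 in WT siTNRC6C cells, against 14.8, 12.8 and 12.5 in WT siGL2 cells. The 3 groups with a TNRC6 deficit lay above all WT siGL2 libraries, and TNRC6AB-/- siTNRC6C libraries lay above all the others. Of all tested genes, 60.2% had no overlap with WT siGL2, above or below, in TNRC6AB-/- siTNRC6C cells. The share was 38.8% in TNRC6AB-/- siGL2 cells and 29% in WT siTNRC6C cells. It was 46.9% for TNRC6AB-/- siTNRC6C against TNRC6AB-/- siGL2, and these shares too stand beside each such statement below. Against WT siGL2, the log2 fold change was 2.32 in TNRC6AB-/- siTNRC6C cells (SE 0.21, adjusted p = 1.25e-08), 1.48 in TNRC6AB-/- siGL2 cells (SE 0.21, adjusted p = 1.48e-05) and 1.65 in WT siTNRC6C cells (SE 0.21, adjusted p = 0.000212). Adding siTNRC6C to TNRC6AB-/- cells gave 0.85 against siGL2 in the same cells (SE 0.20, adjusted p = 0.0139), a call lost without replicate 1 or 2 of TNRC6AB-/- siGL2 or replicate 3 of TNRC6AB-/- siTNRC6C (adjusted p up to 0.0633). The effect of siTNRC6C was 0.80 lower in TNRC6AB-/- than in WT cells on the log2 scale (-0.80, SE 0.29), which did not pass the test of the difference (adjusted p = 0.124).

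The 3′UTR of ITGB8 was the longest of the 10, at 5757 bases in its leading transcript. It was searched for the 7 bases that pair with the seed (bases 2 to 8) of 12 microRNA families, a list made after the levels were known, in the sense strand only. It held 13 matches of 8 families, against 7 each in ITGA2 (4180 bases) and ITGAV (3609 bases) and 6 in ITGA6 (2162 bases). ITGB6 (2070 bases) held 3, and ITGA5 (1032 bases) and ITGB1 (1178 bases) held 2 each. ITGA3 (1402 bases), ITGB4 (260 bases) and ITGB5 (1675 bases) held none. These counts are not scaled to length. Of 3′UTRs of a length like that of ITGB8, 22.2% (miR-192) to 63.1% (miR-17) held a match to a given family. MicroRNAs were not measured here, a match is a stretch of letters and no shown site of repression, and a gene with no match says only that these letters are not in its window. Of the microRNAs with matches in ITGB8, 3 are shown with the seed in capitals, as examples of the letters searched (the miR-200a match is also in ITGA6 and ITGAV), as RefSeq gives them on GRCh38.p14.
hsa-let-7a-5p: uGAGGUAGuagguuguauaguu
hsa-miR-17-5p: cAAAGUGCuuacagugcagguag
hsa-miR-200a-3p: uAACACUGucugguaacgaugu

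The motif for let-7 was CTACCTC, for miR-17 GCACTTT and for miR-200a CAGTGTT, and 8.49%, 19.8% and 17.4% of 10516 3′UTRs of expressed genes held at least 1. Among the 472 3′UTRs of a length like that of ITGB8, the shares were 26.9%, 63.1% and 58.7%. ITGB8 held 1 match to let-7, 2 to miR-17 and 4 to miR-200a. These are shown as sense-strand stretches of 30 bases of GRCh38 with the match in capitals, and an A that follows it also in capitals, at chr7:20411584-20411613 (let-7), chr7:20410210-20410239 and chr7:20412188-20412217 (miR-17) and chr7:20412616-20412645 (1 of the 4 for miR-200a).
ITGB8 let-7 match: ttcattgcacaatatcatgCTACCTCttga
ITGB8 miR-17 match near the stop codon: gagactagtgtcgttgtaGCACTTTActgt
ITGB8 miR-17 match farther on: agatgtcctctacagccaaGCACTTTcaat
ITGB8 miR-200a match: acttccttgtaggcaactCAGTGTTAgacg

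ITGB5 (ENSG00000082781.11, chromosome 3, 124761948 to 124901418, minus strand), which makes with ITGAV a receptor for vitronectin, had the largest log2 fold change of any member in TNRC6AB-/- cells, within the error of that of ITGB8. Its level was 172.5, 220.0 and 192.4 CPM in TNRC6AB-/- libraries, 92.0, 89.0 and 122.7 in TNRC6A-/- and 45.3, 72.6 and 77.3 in TNRC6B-/-, against 48.7, 61.2 and 51.01 in WT. TNRC6AB-/- and TNRC6A-/- libraries stood clear of WT, and TNRC6B-/- libraries overlapped it. The log2 fold change was 1.86 in TNRC6AB-/- cells (SE 0.16, adjusted p = 1.15e-08), 0.92 in TNRC6A-/- cells (SE 0.16, adjusted p = 0.000428) and 0.28 in TNRC6B-/- cells (SE 0.16, adjusted p = 0.456).

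With transfection, ITGB5 was higher in TNRC6AB-/- cells with either duplex. TNRC6AB-/- siTNRC6C libraries held 140.9, 142.1 and 144.9 CPM, TNRC6AB-/- siGL2 libraries 141.9, 132.5 and 120.9, and WT siTNRC6C libraries 69.3, 66.2 and 74.9, against 62.8, 66.3 and 50.1 in WT siGL2. Both TNRC6AB-/- groups lay above both WT groups, whereas the groups given siTNRC6C and siGL2 overlapped within each genotype. The log2 fold change against WT siGL2 was 1.26 in TNRC6AB-/- siTNRC6C cells (SE 0.16, adjusted p = 1.73e-06) and 1.14 in TNRC6AB-/- siGL2 cells (SE 0.16, adjusted p = 1.51e-05). For siTNRC6C against siGL2 it was 0.11 in TNRC6AB-/- cells (SE 0.16, adjusted p = 0.684) and 0.23 in WT cells (SE 0.16, adjusted p = 0.617).

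ITGAV (ENSG00000138448.11, chromosome 2, 186590065 to 186680901, plus strand), the alpha chain that ITGB5, ITGB6 and ITGB8 need, had a smaller log2 fold change than these partners in TNRC6AB-/- cells. It was at 133.9, 151.3 and 156.1 CPM in TNRC6AB-/- cells, at 96.5, 103.6 and 107.4 in TNRC6A-/- cells and at 104.2, 126.0 and 131.3 in TNRC6B-/- cells, against 94.5, 87.1 and 91.0 in WT. All 3 knockout groups lay above WT, by a log2 fold change of 0.69 in TNRC6AB-/- cells (SE 0.095, adjusted p = 5.69e-06), 0.41 in TNRC6B-/- cells (SE 0.095, adjusted p = 0.0158, up to 0.749 over the alternatives) and 0.17 in TNRC6A-/- cells, which did not pass (SE 0.095, adjusted p = 0.239). With transfection no comparison passed in the fit of 24 libraries. ITGAV was at 105.8, 110.7 and 112.1 CPM in TNRC6AB-/- siTNRC6C cells, at 137.2, 130.2 and 118.2 in TNRC6AB-/- siGL2 cells and at 138.1, 136.5 and 134.4 in WT siTNRC6C cells, against 129.4, 121.6 and 109.0 in WT siGL2. TNRC6AB-/- siTNRC6C was thus the lowest of the 4 transfected groups, with all 3 libraries below those of TNRC6AB-/- siGL2 (-0.23, SE 0.094, adjusted p = 0.137), a difference that voom and the 6 compared libraries alone called (adjusted p down to 0.00432). Its 3′UTR held 2 matches to miR-200a, where 44.6% of 980 3′UTRs of like length held at least 1, and the one at chr2:186680817-186680846 is shown.
ITGAV miR-200a match: gagttagtgaaaactggtaCAGTGTTctgc

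ITGB6 (ENSG00000115221.11, chromosome 2, 160099666 to 160200313, minus strand), the epithelial partner of ITGAV that activates TGF-beta, was at the edge of detection. Libraries of TNRC6AB-/- cells held 9.8, 26.4 and 23.2 estimated reads of ITGB6, against 6.7, 6.2 and 4 in WT, or 0.315, 0.697 and 0.694 CPM against 0.220, 0.193 and 0.121. ITGB6 failed the filter on low counts when TNRC6A-/- or TNRC6B-/- libraries were fitted with WT alone. It failed too when WT siTNRC6C libraries were fitted with WT siGL2 alone. The gene thus entered the fit through groups where it was higher and had to differ. The log2 fold change in TNRC6AB-/- cells, given as a value only, was 1.67 (SE 0.39, adjusted p = 0.00214), a call lost under limma voom, which let the spread of each group differ (adjusted p = 0.0726). In the other groups the gene had 3.8 to 20.7 reads per library and passed in no comparison.

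Of the subunits not among the 10, ITGB3 is the other main partner of ITGAV. In WT cells ITGB3 was near the edge of detection, as was ITGB6. It was added after its values were seen, so its changes are given as values only. It had 0.536, 1.42 and 2.02 CPM in TNRC6AB-/- cells, against 0.157, 0.129 and 0.332 in WT, a log2 fold change of 2.66 (SE 0.46, adjusted p = 0.000106). In TNRC6AB-/- siTNRC6C cells ITGB3 was at 1.09, 1.09 and 0.911 CPM, against 0.605, 0.449 and 0.482 in WT siGL2 (1.002, SE 0.40, adjusted p = 0.0475).

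**Figure D3:**
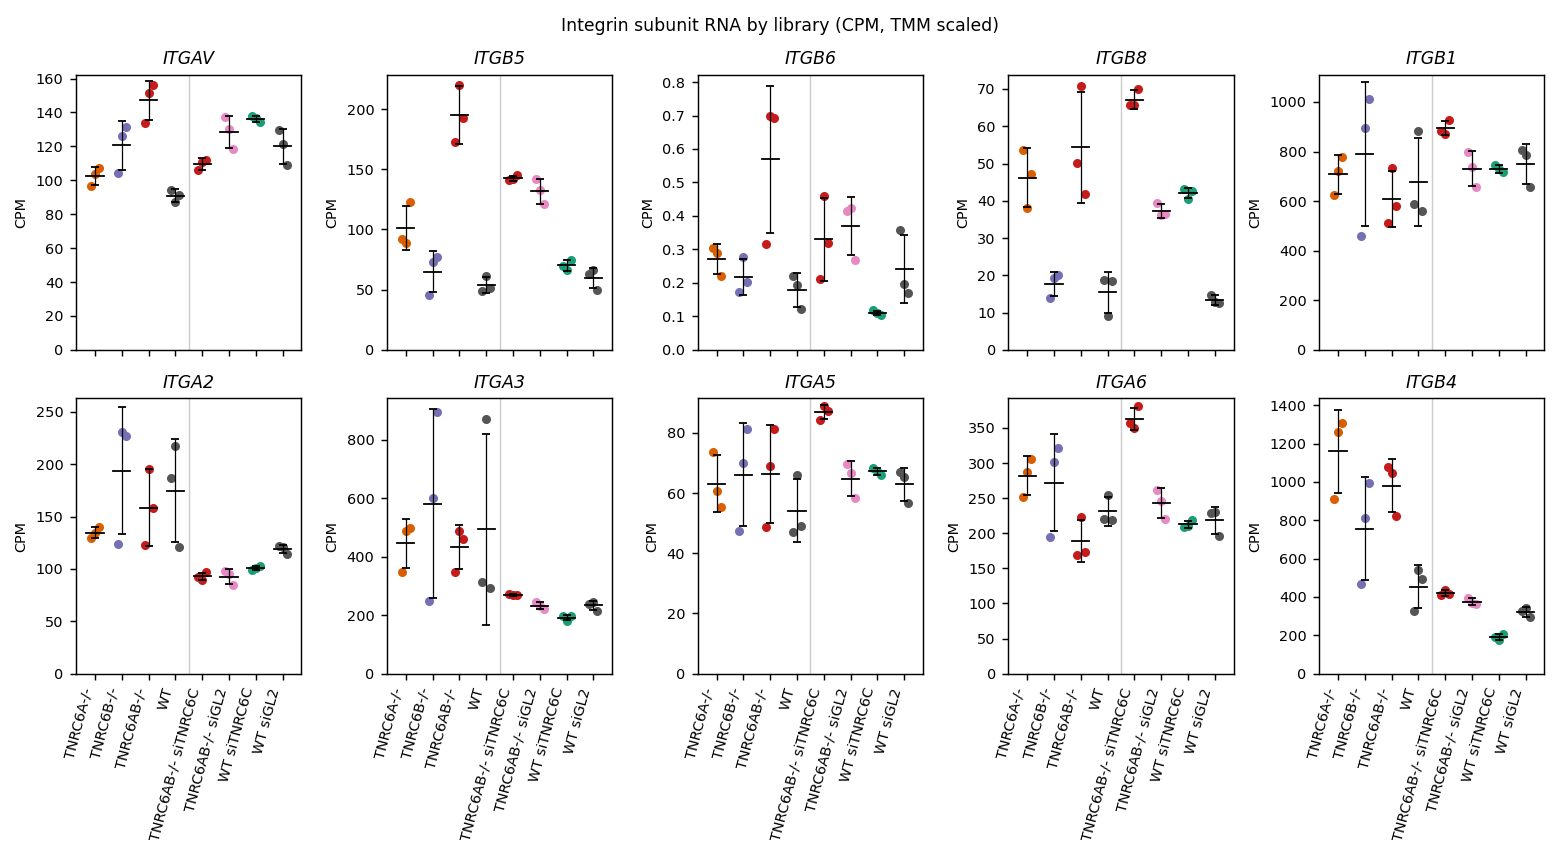
Level of integrin subunits in each of the 24 libraries (CPM, scaled by TMM), with the mean and SD of each group of 3. TNRC6AB-/- libraries held 172.5 to 220.0 CPM of ITGB5 against 48.7 to 61.2 in WT, and TNRC6AB-/- siTNRC6C libraries held 65.6 to 70.0 CPM of ITGB8 against 12.5 to 14.8 in WT siGL2.

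ITGB4 (ENSG00000132470.13, chromosome 17, 75721328 to 75757818, plus strand), the laminin receptor chain of the hemidesmosome, was the most abundant of the members that changed. It was at 913, 1261 and 1308 CPM in TNRC6A-/- cells, at 466, 812 and 993 in TNRC6B-/- cells and at 1076, 1044 and 824 in TNRC6AB-/- cells, against 329, 541 and 494 in WT. TNRC6A-/- and TNRC6AB-/- libraries lay above all WT libraries, and replicate 1 of TNRC6B-/- lay within the WT range. The log2 fold change was 1.35 in TNRC6A-/- cells (SE 0.20, adjusted p = 7.8e-05), 1.11 in TNRC6AB-/- cells (SE 0.20, adjusted p = 0.000182) and 0.74 in TNRC6B-/- cells (SE 0.20, adjusted p = 0.045), a call lost without replicate 1 or 3 of WT or replicate 2 or 3 of TNRC6B-/-. The double knockout thus held less ITGB4 than the effects of the single knockouts would add up to: the difference between its effect and their sum was -0.98 (SE 0.28, adjusted p = 0.0344), a call lost in 8 of 20 alternative settings, among them those without replicate 1 of WT, replicate 2 or 3 of TNRC6A-/-, replicate 2 or 3 of TNRC6B-/- or replicate 3 of TNRC6AB-/- (adjusted p up to 0.224).

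ITGB4 was lower with siTNRC6C in WT cells, at 192, 175 and 207 CPM against 327, 344 and 293 in WT siGL2, with no overlap (-0.75, SE 0.20). This missed the threshold (adjusted p = 0.0738, with 8.94e-05 to 0.262 over the 13 alternatives) and passed with DESeq2, with no filter, with voom and with the 6 compared libraries alone. In TNRC6AB-/- cells the duplex gave 409, 438 and 418 CPM against 395, 369 and 362 with siGL2 (0.17, SE 0.20, adjusted p = 0.632). The 2 effects of siTNRC6C differed by 0.92 on the log2 scale (SE 0.28), short of the threshold (adjusted p = 0.0784). ITGB4 overlaps GALK1 on the opposite strand. The kit kept the strand, and whether the quantification used it is not given in the sources used here.

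ITGA6 (ENSG00000091409.14, chromosome 2, 172427354 to 172506282, plus strand), the only partner of ITGB4, did not follow it. Its level was 251, 288 and 306 CPM in TNRC6A-/- cells, 194, 301 and 321 in TNRC6B-/- cells and 169, 223 and 173 in TNRC6AB-/- cells, against 220, 255 and 218 in WT. TNRC6A-/- and TNRC6B-/- libraries averaged above WT and TNRC6AB-/- libraries below it, with log2 fold changes of 0.29 in TNRC6A-/- (adjusted p = 0.198), 0.24 in TNRC6B-/- (adjusted p = 0.490) and -0.30 in TNRC6AB-/- cells (adjusted p = 0.134) that did not pass the test (SE 0.14 each). The difference between the effect of TNRC6AB-/- and the sum of the single effects was -0.82 (SE 0.20, adjusted p = 0.0129), and was called in 19 of 20 alternative settings.

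With siTNRC6C in TNRC6AB-/- cells, ITGA6 reached 357, 350 and 381 CPM, against 262, 246 and 220 in TNRC6AB-/- siGL2 cells and 229, 230 and 196 in WT siGL2 cells. Libraries of WT siTNRC6C cells held 209, 211 and 218 CPM. TNRC6AB-/- siTNRC6C libraries were above all other transfected libraries, by a log2 fold change of 0.73 against WT siGL2 (SE 0.14, adjusted p = 0.000276) and 0.58 against TNRC6AB-/- siGL2 (SE 0.14, adjusted p = 0.0172), whereas WT siTNRC6C differed from WT siGL2 by -0.04 (SE 0.14, adjusted p = 0.966). The call against TNRC6AB-/- siGL2 was lost when any 1 of the 6 libraries but replicate 1 of TNRC6AB-/- siGL2 was left out (adjusted p up to 0.0745). The difference of the effects of siTNRC6C in the 2 genotypes was 0.62 (SE 0.20, adjusted p = 0.0951). The 3′UTR of ITGA6-201, the leading transcript, held 3 matches to miR-200a, where 27.9% of 1358 3′UTRs of like length held at least 1. Forms that skip an exon described below, such as ITGA6-202, have another stop codon. The match nearest the stop codon of ITGA6-201 need not lie in their 3′UTR. The matches at chr2:172504104-172504133 and chr2:172505831-172505860 are shown.
ITGA6 miR-200a match near the stop codon: aacgctctaggtacgatgaCAGTGTTcccc
ITGA6 miR-200a match farther on: tctgtaaaacaggttataaCAGTGTTtaaa

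ITGA3 (ENSG00000005884.17, chromosome 17, 50055968 to 50090481, plus strand), the other laminin-binding alpha chain, had untransfected groups whose replicate ranges overlapped. It was at 348, 488 and 499 CPM in TNRC6A-/- cells, at 249, 600 and 894 in TNRC6B-/- cells and at 347, 489 and 461 in TNRC6AB-/- cells, against 315, 871 and 294 in WT. Without the farthest library of each untransfected group it was called higher in all 3 knockouts. With transfection it was at 271, 268 and 267 CPM in TNRC6AB-/- siTNRC6C cells, at 244, 231 and 220 in TNRC6AB-/- siGL2 cells and at 197, 181 and 197 in WT siTNRC6C cells, against 239, 245 and 216 in WT siGL2. The transfected libraries were tight and their groups differed little, by 0.20 for TNRC6AB-/- siTNRC6C against WT siGL2 (SE 0.33, adjusted p = 0.643). In the fit of 24 libraries ITGA3 had the widest standard error of the abundant members, and the part of the shared spread in this was not tested. With the 6 compared libraries alone, edgeR called ITGA3 lower in WT siTNRC6C cells (adjusted p = 0.00493). That fit called it higher in TNRC6AB-/- siTNRC6C cells, against WT siGL2 (adjusted p = 0.000125) and against TNRC6AB-/- siGL2 (adjusted p = 0.00047).

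ITGB1 (ENSG00000150093.18, chromosome 10, 32900319 to 33005792, minus strand), the common partner of ITGA2, ITGA3, ITGA5 and ITGA6, had the smallest range of group means of the 10 (0.57 on the log2 CPM scale). Its highest group mean was 894 ± 28.6 CPM in TNRC6AB-/- siTNRC6C cells and its lowest 609 ± 114 CPM in TNRC6AB-/- cells (SD, n = 3 each). TNRC6AB-/- siTNRC6C libraries, at 884, 872 and 927 CPM, lay above the 804, 788 and 657 of WT siGL2 (0.25, SE 0.20, adjusted p = 0.325). In that comparison 60.2% of all tested genes had no overlap.

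ITGA5 (ENSG00000161638.10, chromosome 12, 54395261 to 54419460, minus strand) rose in 1 comparison. It was at 84.2, 88.9 and 87.5 CPM in TNRC6AB-/- siTNRC6C cells against 66.9, 65.2 and 56.7 in WT siGL2 (0.47, SE 0.17, adjusted p = 0.0351), and the call was lost when any 1 of the 6 libraries was left out. ITGA2 (ENSG00000164171.10, chromosome 5, 52989326 to 53094779, plus strand) was at 92.6, 89.8 and 96.6 CPM in TNRC6AB-/- siTNRC6C cells and at 98.1, 95.4 and 84.7 in TNRC6AB-/- siGL2 cells, against 122, 121 and 115 in WT siGL2. Both TNRC6AB-/- groups lay below WT siGL2, by -0.36 each (SE 0.19), which did not pass in the fit of 24 libraries (adjusted p = 0.143 and 0.210) and was called by voom and with the compared libraries alone (adjusted p down to 0.000756 for TNRC6AB-/- siTNRC6C and 0.00383 for TNRC6AB-/- siGL2).

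Whether effects add up or depend on transfection was asked with 3 interaction terms. For the effect of siTNRC6C in TNRC6AB-/- minus that in WT cells, edgeR called 0 of 10 members (4 at an unadjusted p below 0.05, 3 called by DESeq2), beside 3.03% of all genes in either direction. For TNRC6AB-/- against the sum of the single knockouts it called 2 of 10, ITGA6 and ITGB4, beside 7.75% of all genes. For the TNRC6AB-/- effect with siGL2 minus the effect without transfection it called 2 of 10, beside 8.72% of all genes. These were ITGAV (-0.60, SE 0.13, adjusted p = 0.00734) and ITGB5 (-0.72, SE 0.23, adjusted p = 0.0481), both with smaller effects after siGL2, and ITGB4 came near (-0.89, SE 0.28, adjusted p = 0.0534). The ITGB5 call was made in 7 of 20 alternative settings and was lost in 9 of the 12 that leave out 1 library (adjusted p up to 0.183), and the ITGAV call was made in 18 of 20. Sequenced fragments were longer in transfected than in untransfected libraries (196.7 to 214.1 bases against 165.4 to 191.5, taken as transcript length minus the effective length in the deposited tables), so that transfection and this difference cannot be told apart.

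Calls on the share of single transcripts were most numerous in TNRC6A-/- cells, for these genes and for all genes alike. Of 75 transcripts of 9 members that had enough reads (none of ITGB6), the share of the gene's reads passed the test for 8 in TNRC6A-/- cells against WT (10.7%, 4 higher and 4 lower), where 4.92% of 69790 transcripts of all genes passed. The transcripts of a gene are not separate observations, since a rise in the share of one lowers that of others. Among the 8 were ITGA3-202, ITGA3-204 and ITGA3-210, and also ITGB4-203 and ITGB4-204. In TNRC6AB-/- cells 3 passed (4.0%, 2 higher and 1 lower), where 0.834% of all did. None passed in the 5 other comparisons in edgeR, the only tool run on shares, with unadjusted p below 0.05 for 9 in TNRC6B-/- cells, 5 in WT siTNRC6C cells, 3 in TNRC6AB-/- siGL2 cells, 2 in TNRC6AB-/- siTNRC6C cells against WT siGL2 and 1 against TNRC6AB-/- siGL2. Of all transcripts, 0.0688%, 0.0086%, 0.841%, 4.56% and 0.0573% passed in those comparisons. Fragments were shorter in TNRC6A-/- libraries (165.4 to 171.6 bases) than in WT libraries (182.1 to 189.7), and the part of this in the shares was not tested.

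ITGB4-204, a short annotated coding form, took 0.242%, 0.238% and 0.251% of ITGB4 reads in TNRC6A-/- cells, against 1.05%, 1.09% and 0.881% in WT (log2 fold change of the share -2.04, SE 0.21, adjusted p = 6.69e-06). The call held in 9 of 9 alternative settings. ITGA3-204, a form with a retained intron, took 5.66%, 6.33% and 5.89% of ITGA3 reads in TNRC6A-/- cells and 7.66%, 6.86% and 7.66% in TNRC6AB-/- cells, against 11.2%, 9.90% and 11.7% in WT. It was lower in both knockouts, with a log2 fold change of -0.87 in TNRC6A-/- cells (SE 0.099, adjusted p = 2.05e-05, held in 9 of 9 settings) and -0.56 in TNRC6AB-/- cells (SE 0.099, adjusted p = 0.00675, held in 7 of 9, and lost without replicate 2 of TNRC6AB-/-). Retained-intron forms of all genes took 4.60%, 4.68% and 4.40% of reads in TNRC6A-/- libraries and 5.15%, 3.86% and 3.52% in TNRC6AB-/- libraries. In WT libraries they took 5.01%, 5.18% and 4.53%, and the part of this in the ITGA3 shares was not tested. ITGB1-202 took 3.36%, 3.34% and 3.17% of ITGB1 reads in TNRC6A-/- cells, against 9.13%, 6.72% and 5.80% in WT (adjusted p = 0.0206). ITGAV-204 took 30.4%, 25.1% and 25.7% of ITGAV reads in TNRC6A-/- cells, against 16.5%, 17.8% and 19.6% in WT (adjusted p = 0.0236). These last calls held in 5 of 9 settings each. ITGA5-201, the leading form of ITGA5, took 92.1 ± 0.710% in TNRC6A-/- cells and 93.7 ± 1.90% in TNRC6AB-/- cells, against 86.5 ± 1.02% in WT (adjusted p = 0.0325 and 0.0131), and ITGA3-202, ITGA3-210 and ITGB4-203 passed in TNRC6A-/- cells with adjusted p between 0.0389 and 0.0423. The calls on those 3 forms held in 2 to 4 of 9 settings, and that on ITGA5-201 in 3 of 9 for TNRC6A-/- and 5 of 9 for TNRC6AB-/-.

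**Figure D4:**
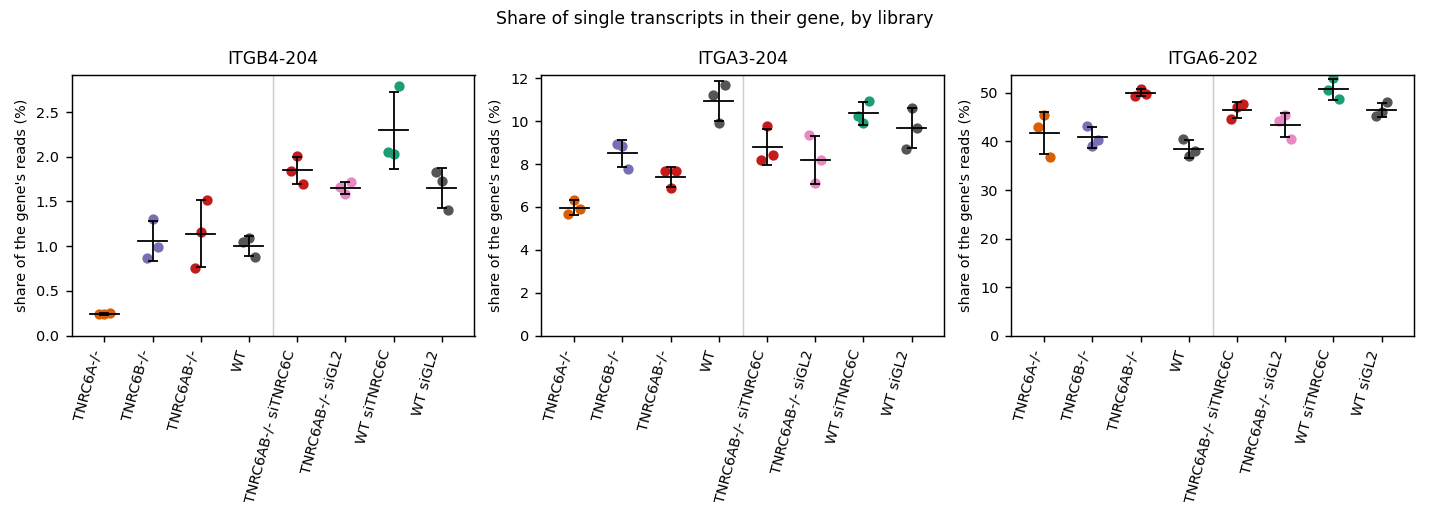
Percent of a gene's reads assigned to transcripts whose share passed the test, by library, with group mean and SD. ITGA6-202 took 49.4% to 50.9% of ITGA6 reads in TNRC6AB-/- libraries against 37.0% to 40.5% in WT, and ITGA3-204 took 5.66% to 6.33% of ITGA3 reads in TNRC6A-/- libraries against 9.90% to 11.7% in WT.

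In TNRC6AB-/- cells the transcript of ITGA6 that moved was one that gives another cytoplasmic tail. ITGA6 and ITGA3 each have an alternative exon before the end of the coding sequence, and transcripts that hold it give the A tail, while those that skip it give the B tail. ITGA6-202, a skipping form, took 49.4%, 50.9% and 49.9% of ITGA6 reads in TNRC6AB-/- cells, against 40.5%, 37.0% and 38.0% in WT. The log2 fold change of the share was 0.38 (SE 0.062, adjusted p = 0.00413). The call held in 8 of 9 settings and was lost with the 6 compared libraries fitted by themselves (adjusted p = 0.103).

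The ITGA6 exon lies at chromosome 2, 172501772 to 172501901, is 130 bases long and holds 105 coding bases. Summed over 2 forms with the exon and 4 without, transcripts with it made up 49.1%, 48.0% and 48.6% of TPM in TNRC6AB-/- cells, against 56.5%, 60.7% and 59.6% in WT. The difference was -10.34 percentage points with no overlap (exact permutation p = 0.1, two-sided, the smallest that 3 against 3 allows). Shares in TNRC6A-/- cells (57.9 ± 4.68%) and in TNRC6B-/- cells (57.2 ± 2.08%) overlapped WT (58.9 ± 2.17%). With transfection, WT siTNRC6C cells had 47.1%, 44.7% and 49.1%, below the 52.9%, 51.8% and 50.1% of WT siGL2 (-4.62 percentage points, exact permutation p = 0.1). TNRC6AB-/- siGL2 cells, at 54.2 ± 2.49% were above WT siGL2 at 51.6 ± 1.43% on average, with overlap (2.64 percentage points, exact permutation p = 0.3). TNRC6AB-/- siTNRC6C cells had 51.7 ± 2.14%, which overlapped both siGL2 groups. These 7 comparisons of each of 2 exons were not adjusted, since none could pass. Random labels separate 3 libraries from 3 with a probability of 0.1, and separation was not counted over other exons. A lack of overlap in exon shares is thus a description only.

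**Figure D5:**
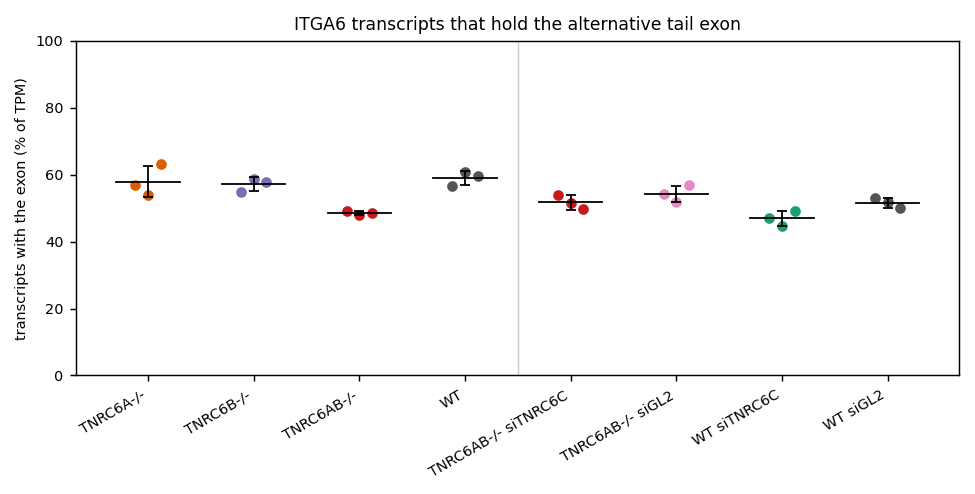
Percent of ITGA6 TPM from transcripts that hold the alternative tail exon, in each library, with mean and SD. TNRC6AB-/- libraries sit at 48.0% to 49.1%, below the 56.5% to 60.7% of WT, and WT siTNRC6C libraries at 44.7% to 49.1%, below the 50.1% to 52.9% of WT siGL2.

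The matching ITGA3 exon (chromosome 17, 50088225 to 50088366, 142 bases) was in nearly all ITGA3 transcripts of every library. Its share was 99.3 ± 0.112% in TNRC6AB-/- siTNRC6C cells against 99.8 ± 0.194% in TNRC6AB-/- siGL2 cells (-0.51 percentage points, exact permutation p = 0.1), and group ranges overlapped in the 6 other comparisons. ITGA6 was present in both forms in the same libraries.

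Of the 16 other annotated subunits, 13 had enough reads, and 4 rose and 2 fell in TNRC6AB-/- cells. The smallest adjusted p there were those of ITGA9 (1.27, SE 0.21, adjusted p = 4.98e-05), ITGB3, which was near the edge of detection in WT, and ITGA7 (0.50, SE 0.12, adjusted p = 0.00169). In TNRC6AB-/- siTNRC6C cells against WT siGL2, ITGA10 (0.72) and ITGB3 rose, and ITGA2B (-0.84) and ITGA7 (-0.41) fell. In WT siTNRC6C cells ITGAX (-1.08) and ITGA7 (-0.53) fell, and in TNRC6AB-/- siGL2 cells ITGA10 (0.78), ITGA9 (0.68) and ITGAE (0.31) rose and ITGA2B (-0.67) fell. In TNRC6A-/- cells edgeR called 0 of 13 (2 at an unadjusted p below 0.05), as in TNRC6B-/- cells (2) and in TNRC6AB-/- siTNRC6C cells against TNRC6AB-/- siGL2 (2). The medians of the list lay between -0.20 and 0.03. Beside this list and those that follow, 8.52% of all tested genes rose and 5.47% fell in TNRC6A-/- cells. The shares were 2.2% and 0.94% in TNRC6B-/- cells, 17.2% and 12.3% in TNRC6AB-/- cells and 0.397% and 0.534% in WT siTNRC6C cells. Against WT siGL2 they were 9.17% and 12.5% in TNRC6AB-/- siGL2 cells and 17% and 25.2% in TNRC6AB-/- siTNRC6C cells. For TNRC6AB-/- siTNRC6C against TNRC6AB-/- siGL2 they were 2.19% and 4.37%.

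Among 13 measured laminin chains and other matrix ligands of these receptors, FN1 and LAMB1 had the smallest adjusted p in TNRC6AB-/- cells. FN1, the fibronectin that ITGA5 and ITGAV receptors bind, was at 66.2, 70.9 and 64.0 CPM in TNRC6AB-/- cells against 15.2, 14.7 and 15.6 in WT (2.14, SE 0.15, adjusted p = 5.5e-10), and it rose also in TNRC6A-/- cells (0.84), in TNRC6B-/- cells (0.69), in TNRC6AB-/- siGL2 cells (1.13) and in TNRC6AB-/- siTNRC6C cells (1.44 against WT siGL2). LAMB1, a laminin beta chain, was at 292, 330 and 264 CPM in TNRC6AB-/- cells against 66.3, 93.0 and 78.3 in WT (1.90, SE 0.14, adjusted p = 1.17e-09), and rose by 1.24 in TNRC6AB-/- siTNRC6C cells against WT siGL2. LAMB3, a laminin beta chain of epithelia, went the other way in TNRC6AB-/- cells and fell by 1.68 (SE 0.34, adjusted p = 0.000513). LAMC1 fell by 0.41 there. Of the 13, 3 rose (FN1, LAMB1, 0.73, and LAMA5, 0.56) and 1 fell (TNC, -1.23) in TNRC6A-/- cells, 1 rose in TNRC6B-/- cells, 2 rose and 3 fell in TNRC6AB-/- cells, 1 fell in WT siTNRC6C cells (SPP1, -1.90), 3 rose (FN1, LAMA3, 1.04, and LAMB1, 0.99) and 1 fell (LAMA4, -1.12) in TNRC6AB-/- siGL2 cells, and 5 rose and 2 fell in TNRC6AB-/- siTNRC6C cells against WT siGL2. One of those that fell there was LAMA4 (-1.35, adjusted p = 1.09e-05). Against TNRC6AB-/- siGL2, LAMC1 rose (0.79) and SPP1 fell (-1.48).

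Partners of ITGA6 and ITGB4 in the hemidesmosome, and tetraspanins that bind integrins in the membrane, were measured by 7 of 8 genes. In TNRC6A-/- cells 3 rose, COL17A1 (1.06), PLEC (0.57) and the tetraspanin CD81 (0.46). In TNRC6AB-/- cells 5 rose, COL17A1 (1.05, SE 0.19, adjusted p = 0.000154), DST (0.61), PLEC (0.55), CD82 (0.66) and CD81 (0.49). COL17A1, a transmembrane collagen that binds ITGB4, rose also in WT siTNRC6C cells (0.77, adjusted p = 0.0368) and in TNRC6AB-/- siTNRC6C cells against WT siGL2 (1.17, SE 0.18, adjusted p = 1.61e-05). The tetraspanin CD9 fell in TNRC6AB-/- siTNRC6C cells (-1.14 against WT siGL2, SE 0.14, adjusted p = 1.44e-06, and -0.67 against TNRC6AB-/- siGL2). In TNRC6AB-/- siTNRC6C cells against WT siGL2, 2 rose (COL17A1 and PLEC, 0.85) and 2 fell (CD9 and CD82, -0.84). In TNRC6AB-/- siGL2 cells 2 rose (COL17A1, 0.95, and PLEC, 0.54) and 1 fell (CD9, -0.47). In TNRC6B-/- cells edgeR called 0 of 7 (2 at an unadjusted p below 0.05).

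Of 24 integrin activators and adaptors of adhesion sites, 11 rose in TNRC6A-/- cells, 2 rose in TNRC6B-/- cells (TNS3, 0.74, and PARVA, 0.57), 11 rose and 3 fell in TNRC6AB-/- cells, and 11 rose and 4 fell in TNRC6AB-/- siTNRC6C cells against WT siGL2. TNS3, a tensin that links beta chain tails to actin, rose by 1.73 in TNRC6AB-/- cells (SE 0.094, adjusted p = 6.31e-12), by 1.01 in TNRC6AB-/- siTNRC6C cells and by 0.41 in WT siTNRC6C cells (adjusted p = 0.0297). PARVA, a parvin of the complex with integrin-linked kinase, rose by 1.74 in TNRC6AB-/- siTNRC6C cells (SE 0.16, adjusted p = 1.18e-08), and FERMT2, a kindlin that activates integrins, by 0.92 (SE 0.095, adjusted p = 9.18e-08). TGFB1I1 (1.39) and LIMS2 (1.59) rose in TNRC6AB-/- cells. In TNRC6AB-/- siTNRC6C cells against TNRC6AB-/- siGL2 TLN2 (0.60) alone passed among the 24. In TNRC6AB-/- siGL2 cells 7 rose and 3 fell.

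The genes whose 8 group means of log2 CPM followed a subunit most closely were looked up for the 3 members with the widest range, among 11762 (for ITGB6, 11763) genes with a mean of at least 5 CPM. They were C5AR1 (Pearson r = 0.980), PACS2 (0.972) and SEMA3B (0.970) for ITGB4, PRICKLE1 (0.977), SLC38A7 (0.955) and TMEM104 (0.952) for ITGB8, and IDS (0.967), IGF2 (0.964) and B4GALNT1 (0.964) for ITGB6. With 8 points and so many genes, such values are a description of 8 group means only. ITGB6 itself was at the edge of detection and below the level asked of the genes compared. Its range and its likeness to other genes rest on few reads.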

How the data were processed

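RNA of 24 libraries was quantified by the authors with Salmon 0.11.0. The deposited tables hold, for 199612 transcripts, estimated counts of reads and length-scaled abundance (TPM), both as Salmon wrote them, and the index and library type are not given in the sources used here. Labels name Trizol and a strand-specific kit, while the methods of the study name columns for RNA.

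Of the transcripts, 199368 matched GENCODE 29. In no library did the 244 unmatched ones exceed 0.0544% of reads. Estimated counts were summed to genes and rounded, and 24153 genes passed filterByExpr. After TMM scaling, edgeR's quasi-likelihood model was fitted with 1 mean for each of 8 groups in all 24 libraries (edgeR 4.0.16, R 4.3.3). Benjamini-Hochberg adjustment covered every gene tested, and the threshold was 0.05. Shares of transcripts with a mean of at least 10 reads were fitted with the total of the gene as offset, and the self-test on simulated data was run for these fits. Exon inclusion was tested by exact permutation. Alternatives included DESeq2 1.42.0 and limma 3.58.1 (voom).

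The members and all lists were chosen with earlier results of these data known. All 10 members are named. From other lists, up to 3 genes with the smallest adjusted p in TNRC6AB-/- against WT and in TNRC6AB-/- siTNRC6C against WT siGL2 are named, as are genes of lists with 5 or fewer calls. One gene that this rule names is not reported here. ITGB3 and the values of FN1 and LAMB1 in other comparisons were added after they were seen. Replicates of a group differed by more than sampling noise. Same-numbered libraries deviated together weakly at most (correlations from -0.14 to 0.28, the highest for replicate 3 of TNRC6AB-/- siGL2 and WT siGL2). The main fit did not pair libraries by number, and a replicate block was among the alternatives.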

Additional observations from a re-analysis of the deposited data

Results flagged for a closer look

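The differences between effects given here for 4 subunits passed the test of an interaction term in the fit of 24 libraries, but levels in these groups chose the genes, so they are a description and support nothing. ITGA6 and ITGB4 were lower in TNRC6AB-/- cells than the sum of the effects in TNRC6A-/- and TNRC6B-/- cells, by -0.82 for ITGA6 and -0.98 for ITGB4 on the log2 scale. ITGAV and ITGB5 had a smaller TNRC6AB-/- effect with siGL2 than without transfection, by -0.60 for ITGAV and -0.72 for ITGB5. Transfected libraries also had longer sequenced fragments, which cannot be told apart from transfection in the last pair.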

How the results depend on the processing

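Of 23 calls on members, 13 were kept in every alternative setting: ITGB8 and ITGB5 in TNRC6A-/-, TNRC6AB-/-, TNRC6AB-/- siGL2 and TNRC6AB-/- siTNRC6C cells against their WT groups, ITGB8 in WT siTNRC6C cells, ITGB4 in TNRC6A-/- and TNRC6AB-/- cells, ITGAV in TNRC6AB-/- cells and ITGA6 in TNRC6AB-/- siTNRC6C cells against WT siGL2. No called value turned its sign. Of 77 tests with no call, 45 passed in at least 1 setting. The cause of the changes below was not tested. For counts in alternative settings, here and above, the shares of all genes, transcripts or exons were not computed. Such counts are no result about the members. With the compared libraries alone, members called were 0 in place of 2 for TNRC6B-/-, 4 in place of 1 for WT siTNRC6C, 5 in place of 2 for TNRC6AB-/- siGL2, 8 in place of 4 for TNRC6AB-/- siTNRC6C against WT siGL2 and 8 in place of 2 against TNRC6AB-/- siGL2, 8 in place of 0 for the interaction of siTNRC6C with genotype, 0 in place of 2 for TNRC6AB-/- against the sum of the single effects, 0 in place of 2 for transfection with genotype, and 5 in place of 11 for transcript shares. With voom they were 0 for TNRC6B-/-, 2 for WT siTNRC6C, 5 for TNRC6AB-/- siTNRC6C against TNRC6AB-/- siGL2, 4 for siTNRC6C with genotype and 1 for the sum of single effects. With no filter they were 1 for TNRC6B-/-, 2 for WT siTNRC6C and 3 for siTNRC6C with genotype, with DESeq2 2 for WT siTNRC6C and 3 for siTNRC6C with genotype, with counts scaled from TPM 0 for TNRC6B-/-, 2 for siTNRC6C with genotype and 1 for transfection with genotype, and with RLE factors 1 for the last. Without the farthest library of each untransfected group (replicate 2 of WT and of TNRC6A-/-, replicate 1 of TNRC6B-/- and of TNRC6AB-/-), an alternative chosen after seeing the data, they were 6 in place of 3 for TNRC6A-/-, 8 in place of 2 for TNRC6B-/-, 4 in place of 2 for the sum of single effects and 6 in place of 2 for transfection with genotype. Leaving out 1 library gave 0 to 5 for TNRC6B-/- (5 without its replicate 1, 0 without its replicate 2 or 3), 0 to 1 for TNRC6AB-/- siTNRC6C against TNRC6AB-/- siGL2, 1 to 3 for the sum of single effects, 1 to 3 for transfection with genotype, 6 to 14 for transcript shares and 3 to 5 of 14 for exon shares with no overlap (5 without replicate 2 of TNRC6AB-/- siGL2). A replicate block moved no count by over 1.5 times: it gave 2 members for TNRC6B-/- and 5 for TNRC6AB-/-, lost ITGB5 and gained ITGB4 for transfection with genotype, and lost ITGA3-210 in TNRC6A-/-. ITGB6, with at most 26.4 reads in a library, is limited by depth.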
